A study of Mus musculus with 4 samples.

Results

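The 10 genes described here, Hk1, Hk2, Pfkp, Aldoa, Gapdh, Pgk1, Pgam1, Eno1, Pkm and Ldha, encode enzymes of glycolysis and were taken as a named list. All 10 were found by Entrez identifier among the 19339 genes listed for each library, and all 10 were among the 12009 genes that were tested. Transcripts of 8 of the 10 were among the more abundant in these libraries, and none of the 10 passed the test between genotypes in limma, in which 0 of all 12009 tested genes passed (642 had an unadjusted p under 0.05). The 2 hexokinase genes differed most, with less Hk1 and more Hk2 in the libraries labelled Kdm6b-deficient, and Gapdh was at 0.848 times the control mean there.

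RNA-seq was performed on TCRαβ+CD8αα+ intraepithelial lymphocytes (IELs), T cells that live within the epithelium of the small intestine and carry the CD8αα homodimer, from C57BL/6 mice. Kdm6b is a demethylase of histone H3 lysine 27, and the mice compared were Kdm6b fl/fl animals without Cre (control) and Kdm6b fl/fl-CD4Cre animals (Kdm6b-deficient). All groups therefore carried the floxed alleles, the Cre transgene was carried by the deficient group alone, and CD4Cre acts in T cells from a late double-negative thymocyte stage on. Cells were sorted as CD45+CD4-TCRβ+CD8α+CD8β-, and each library held RNA pooled from 3 mice of a genotype whose age the labels do not give. The 4 libraries used here are control replicates 1 and 3 and Kdm6b-deficient replicates 1 and 3, 2 per group, and p-values measure only the spread between these pools. Values are FPKM as the authors computed them, that is, fragments per unit of transcript length and of sequencing depth, so levels can be set side by side between genes.

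Glycolysis splits glucose into pyruvate in the cytosol. Hexokinase traps glucose as glucose 6-phosphate, phosphofructokinase commits the sugar to breakdown, aldolase cleaves it, and the enzymes from GAPDH to pyruvate kinase harvest ATP and NADH. Lactate dehydrogenase returns NADH to NAD+ by making lactate. T cells raise this pathway when they are activated, whereas gut enterocytes use a partly different set of isozymes, such as liver-type pyruvate kinase, in handling dietary sugar and fructose.

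The labelled cell type was checked against its markers. All 11 markers of the sorted IELs were at or above 1 FPKM in every library. Their summed levels were 27183 and 18727 FPKM in the controls and 17815 and 13706 FPKM in the deficient libraries. Gzma alone made up 17390.5 and 11061.3 FPKM of these sums in the controls and 11315.6 and 8836.9 FPKM in the deficient libraries. All 11 had a negative log2 difference (median −0.52), 7 of them without overlap of the groups (18.6% of all tested genes were lower in this way). The 22 markers of intestinal epithelium, a cell type that the CD45 gate should exclude, summed to 1426 and 4624 FPKM in control replicates 1 and 3 and to 4343 and 11170 FPKM in deficient replicates 1 and 3. Epithelial transcripts were thus lowest in control replicate 1 and highest in deficient replicate 3, and all 22 had a positive log2 difference, 5 of them without overlap of the groups (18.4% of all tested genes were higher in this way). Of 6 markers of gated-out T cells, Cd4 was at 30.6, 10.1, 30.5 and 3.17 FPKM and Cd8b1 at 0, 0.9, 1.64 and 0.73 FPKM in control 1, control 3, deficient 1 and deficient 3, and the other 4 were not analysed here. Summed markers ranged from 31.5 to 84.8 FPKM for B cells, from 362 to 822 FPKM for myeloid cells, from 0.25 to 196 FPKM for erythroid cells and from 11.7 to 16.1 FPKM for fibroblasts and endothelium. Kdm6b itself was at 16.5 and 16.0 FPKM in the controls and at 18.2 and 11.1 FPKM in the libraries labelled Kdm6b-deficient (log2 difference −0.18, SE 0.29, limma adjusted p = 0.886). Which exons the floxed allele loses is not given in the sources used here, so a value over the whole gene does not settle the labels. In bulk RNA, fewer cells of a type and less RNA per cell cannot be told apart.

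**Figure D1:**
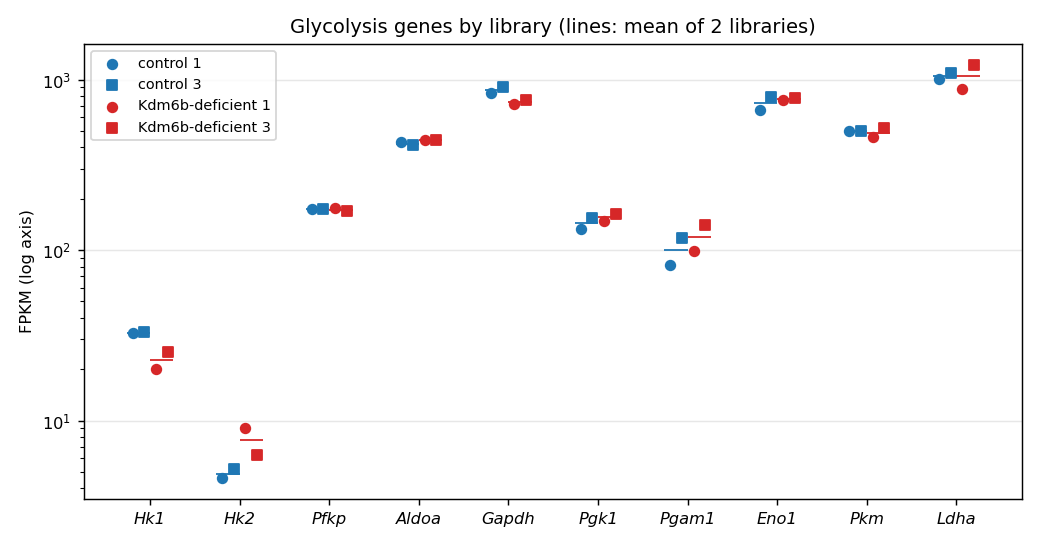
FPKM of each glycolysis gene on a log axis, with 1 point per library (blue, control, and red, Kdm6b-deficient, with circles for replicate 1 and squares for replicate 3) and a line at each mean of 2 libraries. Ldha was highest and Hk2 lowest in all 4 libraries, and the groups separate for Hk1, Hk2, Aldoa and Gapdh.

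The 10 genes covered a wide range of levels, with Ldha, Gapdh, Eno1 and Pkm, enzymes of the lower part of the pathway, on top. Averaged over the 4 libraries, the order was Ldha (1054 FPKM), Gapdh (803 FPKM), Eno1 (748 FPKM), Pkm (494 FPKM), Aldoa (432 FPKM), Pfkp (173 FPKM), Pgk1 (150 FPKM), Pgam1 (109 FPKM), Hk1 (27.7 FPKM) and Hk2 (6.27 FPKM), 168-fold from top to bottom. The first 8 of these lay above percentile 91.8 of mean FPKM over all tested genes, while Hk1 lay at percentile 69.3 and Hk2 at 31.0. Between neighbours in this order, Ldha and Gapdh, Gapdh and Eno1, and Pgk1 and Pgam1 overlapped over the libraries, and the other 6 neighbouring pairs did not. The rank of each gene was identical in all 4 libraries except that Gapdh stood above Eno1 in both controls and below it in both deficient libraries. The ratio of Eno1 to Gapdh was 0.791 and 0.872 in the controls and 1.07 and 1.03 in the deficient libraries, a ratio chosen after the values were seen.

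The summed level of the 10 genes overlapped between the groups. It was 3868 and 4177 FPKM in control replicates 1 and 3 and 3716 and 4226 FPKM in deficient replicates 1 and 3, or 0.669%, 0.679%, 0.616% and 0.654% of the FPKM total of each library. The deficient mean was 0.987 times the control mean, and both the lowest and the highest sum belonged to the deficient group.

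The 250 bases upstream of the annotated starts of the 10 genes were read from RefSeq on GRCm38.p6, 17 windows in all. ACGTG, a form of the core of the element that hypoxia-inducible factor binds, was searched on either strand. GCGTG, another form, was not searched. ACGTG was found for 6 of the 10 genes (Aldoa, Hk2, Ldha, Pgam1, Pgk1 and Pkm), against 18.5% of 27025 annotated genes, tested here or not. A gene counted when any of its windows matched. By window, ACGTG was in 7 of 17, against 16.6% of 32851 windows. CACGTG, the E-box bound by Myc and ChREBP, which contains ACGTG, was found for Ldha alone, against 6.86% of genes. GGGCGG, the GC box, was found for 7 of the 10 genes (35.4% of all genes), CCAAT for 6 (37.5%) and TATAAA for none (14.3%). By window these were in 9 of 17 (32.7% of all windows), 8 of 17 (33.8%) and 0 of 17 (12.4%). Genes with the ACGTG letters included Ldha (5 matches over both strands in 1 of its 2 windows), Pgk1 (2 matches) and Pkm, whose groups overlapped. The Ldha count takes in 2 CACGTG sites, each counted on both strands. All of these are matches of letters, and nothing about binding or about the differences between groups was tested from them.

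The windows of the 4 genes whose values did not overlap between the groups, described next, are shown 5′ to 3′ on the strand of the gene. Separation of this kind was common, at 18.4% (higher) and 18.6% (lower) of all tested genes. Capitals mark ACGTG or its reverse complement, CACGT. Hk2 has a single window (chr6:82774455-82774704, minus strand), as has Gapdh (chr6:125165774-125166023, minus strand), whereas Hk1 has 2, of which the upstream window is shown (chr10:62379909-62380158, minus strand), and Aldoa has 3, of which the window at chr7:126799255-126799504 (minus strand) is shown.
Hk1: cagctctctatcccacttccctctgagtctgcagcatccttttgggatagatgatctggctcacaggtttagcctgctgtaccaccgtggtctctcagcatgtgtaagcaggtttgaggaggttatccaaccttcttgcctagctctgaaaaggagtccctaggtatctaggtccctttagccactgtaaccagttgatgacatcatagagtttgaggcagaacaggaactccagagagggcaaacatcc
Hk2: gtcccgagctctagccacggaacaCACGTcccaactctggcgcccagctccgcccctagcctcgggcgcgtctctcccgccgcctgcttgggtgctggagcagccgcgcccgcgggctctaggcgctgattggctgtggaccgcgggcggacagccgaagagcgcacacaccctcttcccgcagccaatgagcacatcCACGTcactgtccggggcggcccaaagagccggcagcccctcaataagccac
Aldoa: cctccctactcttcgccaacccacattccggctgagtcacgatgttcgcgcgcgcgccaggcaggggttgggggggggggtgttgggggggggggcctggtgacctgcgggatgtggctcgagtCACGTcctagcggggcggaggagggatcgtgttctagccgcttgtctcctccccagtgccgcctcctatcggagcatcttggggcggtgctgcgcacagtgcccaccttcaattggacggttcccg
Gapdh: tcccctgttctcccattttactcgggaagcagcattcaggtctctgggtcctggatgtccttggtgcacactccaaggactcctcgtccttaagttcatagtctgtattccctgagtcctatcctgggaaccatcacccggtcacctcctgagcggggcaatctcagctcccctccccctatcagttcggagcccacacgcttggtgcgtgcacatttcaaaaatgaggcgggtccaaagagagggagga
Hk2 carries the letters at 2 places and Aldoa at 1 in these windows, which have GC contents of 69.6% and 67.6%, while the windows of Hk1 and Gapdh have 49.6% and 55.6%.

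The 2 hexokinase genes differed in opposite directions, and neither overlapped between groups. Of all tested genes, 18.4% were higher and 18.6% lower without overlap. Hk1, on chromosome 10 (62268855 to 62379920, GRCm38), encodes the hexokinase found in most tissues. Its level was 32.4 and 33.0 FPKM in control replicates 1 and 3 and 20.2 and 25.1 FPKM in deficient replicates 1 and 3. Both deficient libraries lay below both controls, at 0.692 times the control mean (32.7 ± 0.445 against 22.6 ± 3.46 FPKM, SD, n = 2 libraries each). The difference on the log2(FPKM + 1) scale was −0.52 (SE 0.21, 95% interval −1.03 to −0.01), with an unadjusted p of 0.048 and an adjusted p of 0.755 in limma with Benjamini-Hochberg adjustment over all tested genes. The median log2 difference of the 11 IEL markers was also −0.52, and whether Hk1 follows the share of IEL RNA was not tested.

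Hk2, on chromosome 6 (82725025 to 82774454), encodes the hexokinase known for its induction in activated T cells and in hypoxia. It was at 4.59 and 5.18 FPKM in the controls and at 9.04 and 6.27 FPKM in deficient replicates 1 and 3. Both deficient libraries were above both controls, and deficient replicate 1 stood apart from the other 3 libraries. The log2 difference was 0.54 (SE 0.31, 95% interval −0.22 to 1.30, limma adjusted p = 0.755), while it was 0.31 without deficient replicate 1 and 0.77 without deficient replicate 3. The ratio of Hk2 to Hk1 was 0.142 and 0.157 in the controls and 0.448 and 0.250 in the deficient libraries, again a ratio chosen after the values were seen. In no library did Hk2 reach the level of Hk1. The direction of each hexokinase gene held under every scaling tried, with Hk1 at −0.14 and Hk2 at 0.87 after scaling each library to the T cell genes Cd3d, Cd3e, Cd3g and Ptprc, which moved the median of all tested genes to 0.36. With the mean level of the epithelial markers as a covariate, the log2 differences of Hk1 and Hk2 were −0.66 and 0.67. That fit has little to spare with 4 libraries. Its covariate is also not independent of group, being lowest in control replicate 1 and highest in deficient replicate 3. Values from it, here and below, are descriptive, and whether epithelial RNA accounts for a difference was not tested.

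Pfkp, the platelet-type phosphofructokinase gene on chromosome 13 (6579874 to 6649060), was the steadiest member. It was at 174.4 and 174.03 FPKM in the controls and at 175.5 and 169.5 FPKM in the deficient libraries. The highest library exceeded the lowest by 0.05 on the log2 scale, which placed Pfkp at percentile 0.0833 of that range over all tested genes, from the smallest up. Its log2 difference was −0.01 (95% interval −0.42 to 0.39, limma adjusted p = 0.987). The span of Pfkp overlaps that of Pitrm1 by 285 bases, and the strand setting of the authors' counting is not given in the sources used here.

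Aldoa, the aldolase gene of muscle and most other cells, on chromosome 7 (126795234 to 126800994), was at 431.7 and 411.7 FPKM in the controls and at 442.7 and 440.7 FPKM in the deficient libraries. The deficient libraries were above the controls by a small step, with a log2 difference of 0.07 (95% interval −0.38 to 0.51, limma adjusted p = 0.935). That direction turned to −0.03 under quantile normalization. The testis copies Aldoart1 and Aldoart2, which resemble Aldoa in sequence, were at 0.16 FPKM or less in every library.

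Gapdh, on chromosome 6 (125161852 to 125166467), encodes the dehydrogenase that makes the NADH of glycolysis and is widely used as a reference transcript. It was at 838.4 and 900.5 FPKM in the controls and at 714.6 and 759.3 FPKM in deficient replicates 1 and 3. Both deficient libraries lay below both controls (869 ± 43.9 against 737 ± 31.7 FPKM, SD, n = 2 each). The log2 difference was −0.24 (SE 0.20, 95% interval −0.75 to 0.27, limma adjusted p = 0.793). The direction was lower under each scaling except the one to T cell genes, which gave 0.15 where the median of all tested genes was 0.36. Gapdh-ps15, a processed copy, was at 2.85 to 9.71 FPKM, so reads shared with copies are a limit on the Gapdh value.

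Pgk1, on chromosome X (106187100 to 106203699), encodes the kinase of the first ATP-yielding step. It was at 133.4 and 154.2 FPKM in the controls and at 149.1 and 162.8 FPKM in the deficient libraries, with overlap (log2 difference 0.12, 95% interval −0.32 to 0.56, limma adjusted p = 0.874). Pgam1, the phosphoglycerate mutase gene on chromosome 19 (41911871 to 41918665), was at 82.2 and 117.1 FPKM in the controls and at 98.5 and 140.04 FPKM in the deficient libraries. Within each group replicate 3 was higher than replicate 1, and the groups overlapped (log2 difference 0.26, 95% interval −0.41 to 0.92, limma adjusted p = 0.828). For Pgk1 and Pgam1 the libraries stood in the order of the summed epithelial markers, from control 1 over deficient 1 and control 3 to deficient 3. With the epithelial marker level as a covariate, their log2 differences were −0.03 and −0.17.

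Eno1, the enolase gene on chromosome 4 (150236708 to 150248879), was at 662.9 FPKM in control replicate 1 and at 785.5, 763.02 and 779.9 FPKM in control 3, deficient 1 and deficient 3. Control replicate 1 was the low library and the other 3 were close together. The log2 difference was 0.10 (95% interval −0.43 to 0.62, limma adjusted p = 0.917), and −0.03 without control replicate 1. Pkm, on chromosome 9 (59656576 to 59679372), encodes the pyruvate kinase of T cells, and its splice forms cannot be separated in values per gene. It was at 496 and 500.7 FPKM in the controls and at 458.04 and 519.6 FPKM in the deficient libraries, which lay to either side of the controls (log2 difference −0.03, 95% interval −0.51 to 0.44, limma adjusted p = 0.974).

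Ldha, on chromosome 7 (46842274 to 46855627), encodes the lactate dehydrogenase subunit that favours lactate production and was the most abundant member. It was at 1012 and 1095 FPKM in the controls and at 885 and 1223 FPKM in deficient replicates 1 and 3. The deficient libraries enclosed the controls, and the group means were 1054 ± 58.6 and 1054 ± 239 FPKM (SD, n = 2 each). The log2 difference was −0.02 (95% interval −0.66 to 0.62, limma adjusted p = 0.991), while it was 0.22 without deficient replicate 1 and −0.25 without deficient replicate 3.

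**Figure D2:**
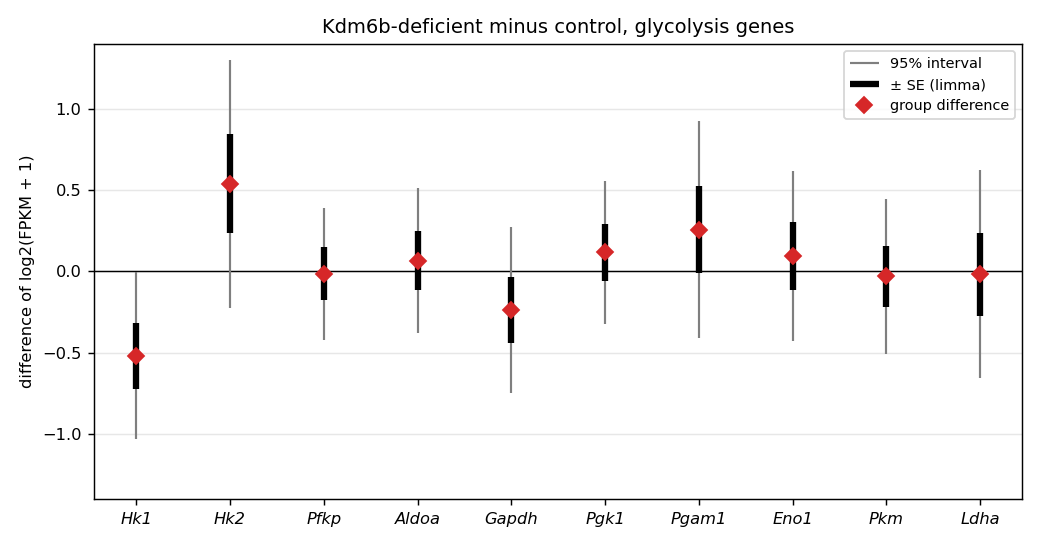
Difference of log2(FPKM + 1), Kdm6b-deficient minus control, for each glycolysis gene: diamonds give the limma group difference, thick bars its standard error and thin bars its 95% interval. Hk1 lies at −0.52 and Hk2 at 0.54, and the other 8 genes lie between −0.24 and 0.26, with intervals that all include 0.

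Counted together, the 10 genes were close to the rest of the transcriptome in how often the groups separated. Of the 10, 2 were higher in both deficient libraries than in both controls (Hk2 and Aldoa), against 18.4% of all tested genes, and 2 were lower in both (Hk1 and Gapdh), against 18.6%. None had a log2 difference above 1, against 6.2% of tested genes, and none had one below −1, against 0.441%. The number with an unadjusted p under 0.05 was 1 (Hk1), against 5.35% (642 genes), and none had an adjusted p under 0.05 in limma, where 0% of the 12009 genes did. In limma without a trend, none of the 10 had an unadjusted p under 0.05, and none had one when control 1, control 3 or deficient 1 was left out. With a single library in a group, overlap is harder by construction, for all genes alike. The number of the 10 that were higher was 5 without control 3 (38.1% of tested genes) and 6 without deficient 1 (39.2%), and the number lower was 4 without deficient 3 (30.1%). An exact permutation test of 2 against 2 libraries cannot give a two-sided p below 0.333. Of the 10 differences, 5 were positive and 5 negative, with a median of 0.03 beside 0.00097 for all tested genes. The sign of that small median turned under quantile normalization (−0.05) and with the epithelial covariate (−0.07). The intervals above reach a 2.47-fold higher level for Hk2 and a 0.489-fold level for Hk1, and for each of the other 8 genes they stay within 0.596-fold and 1.90-fold.

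The range of a gene over the 4 libraries on the log2 scale had a median of 0.31 for the 10 genes, 0.33 for the 13 reference genes and 0.62 for all tested genes. It ran from 0.05 for Pfkp to 0.84 for Hk2, and Hk1 (0.68), Pgam1 (0.76) and Hk2 lay above the median of all tested genes. The mean of the 10 centred profiles was at −0.08 and 0.05 in the controls and −0.05 and 0.07 in the deficient libraries, while the marker lists of both cell types spread further. Relative to control replicate 1, the mean level of the epithelial markers was 2.89 in control 3, 2.50 in deficient 1 and 6.68 in deficient 3, and that of the IEL markers was 0.816, 0.724 and 0.544. Of 78 tested genes of related pathways, the 3 whose profile over the 4 libraries was nearest to the mean of the 10 were Prkaa1, a catalytic subunit of the energy sensor AMPK, at a root mean square difference of 0.037 on the log2 scale, Rpe, ribulose phosphate epimerase, at 0.048, and G6pc3, a widely expressed glucose 6-phosphatase, at 0.050. That mean is nearly flat, so nearness to it picks steady genes (ranges 0.20, 0.10 and 0.28) and cannot show shared regulation.

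**Figure D3:**
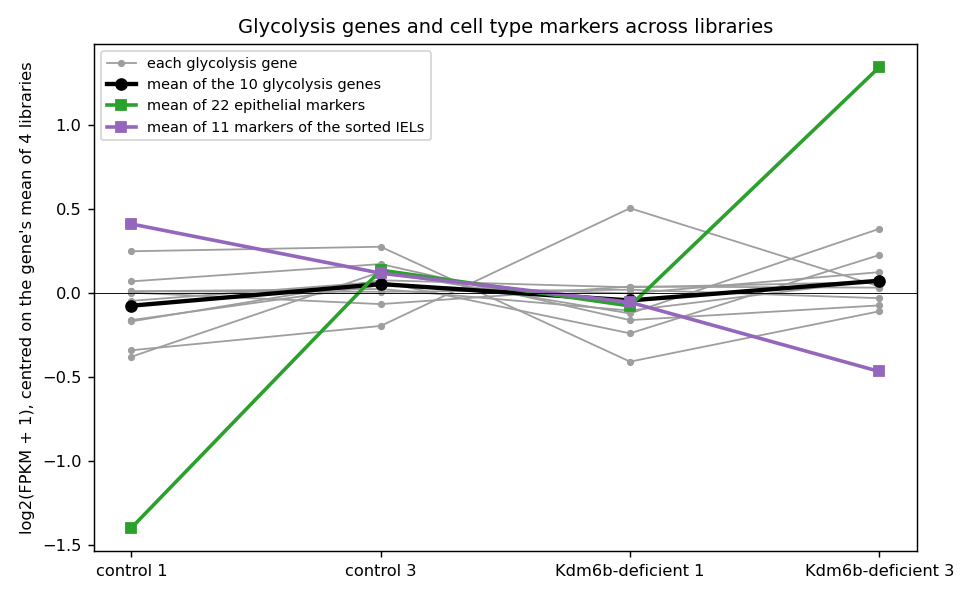
Log2(FPKM + 1) in each of the 4 libraries, centred on the mean of the libraries, for each of the 10 glycolysis genes (grey), their mean (black), the mean of 22 epithelial markers (green) and the mean of 11 IEL markers (purple). The black line stays near 0, while the epithelial markers are lowest in control 1 and highest in deficient 3 and the IEL markers run the other way.

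Several steps of glycolysis can be run by more than a single isozyme, and the share of each gene in the FPKM of its step was computed per library. The shares of Hk1 in the hexokinase step were 72.2% and 57.9% in the controls and 41.3% and 33.0% in the deficient libraries, without overlap. Hk2 held 10.2% and 9.08% in the controls and 18.5% and 8.24% in the deficient libraries. Hkdc1, a hexokinase gene expressed in epithelia and the neighbour of Hk1 on chromosome 10, held 10.9% and 30.9% in the controls and 33.4% and 55.6% in the deficient libraries. Hkdc1 was at 4.89 and 17.6 FPKM in the controls and at 16.3 and 42.3 FPKM in the deficient libraries, so it exceeded Hk1 in deficient replicate 3 alone. Its log2 difference was 1.39 (limma adjusted p = 0.755), and 0.11 with the epithelial marker level as a covariate.

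Pkm held 99.6% and 98.98% of the pyruvate kinase step in the controls and 98.6% and 96.7% in the deficient libraries, with Pklr, the liver-type enzyme, as the rest (2.14 and 5.16 FPKM against 6.56 and 17.9 FPKM). The log2 difference of Pklr was 1.44 (limma adjusted p = 0.755), and 0.47 with the epithelial covariate.

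In the other steps shown the listed gene dominated in every library. Pfkp held 79.5% to 86.2% of phosphofructokinase, with the larger part of the rest in Pfkl. Eno1 held 98.5% to 99.1% of enolase, with at most 0.162% in its near copy Eno1b, Ldha 98.6% to 99.3% of lactate dehydrogenase and Pgam1 98.8% to 100% of phosphoglycerate mutase. Gapdh and Pgk1 each held over 99.8% of their step, the testis genes Gapdhs and Pgk2 being at or near 0.

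**Figure D4:**
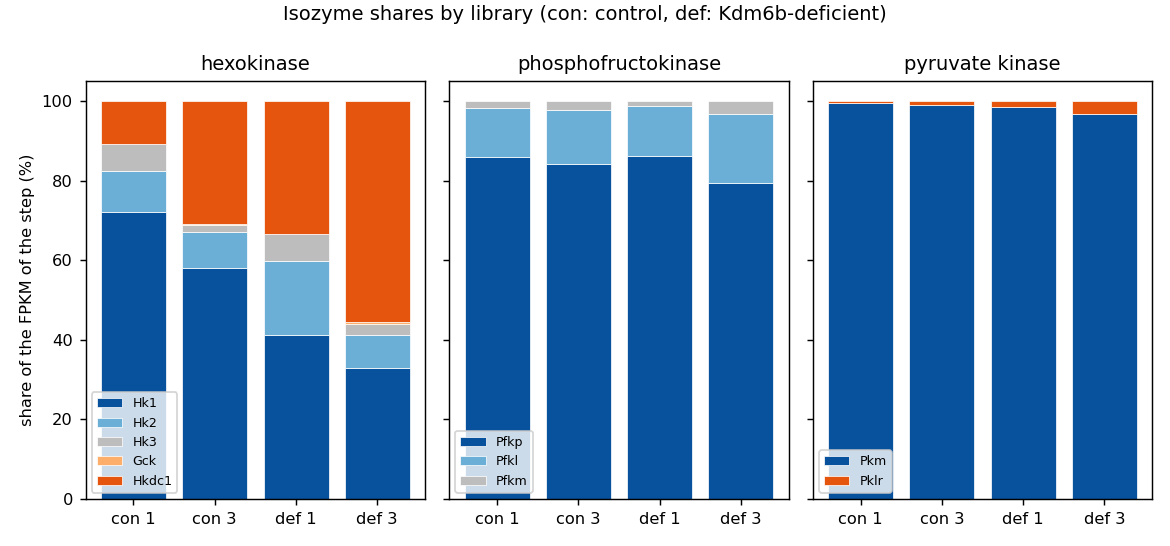
Stacked bars of the share of each isozyme gene in the summed FPKM of its step, in percent, for hexokinase, phosphofructokinase and pyruvate kinase in control 1, control 3, deficient 1 and deficient 3. The share of Hk1 lies between 33.0% (deficient 3) and 72.2% (control 1), while Pfkp and Pkm keep most of their steps.

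The remaining glycolytic genes were described as a list of 20, of which 14 were tested. In limma with group as the only term, no gene of the lists that follow had an adjusted p under 0.05. Of the 14, 4 were higher and 2 lower without overlap of the groups (18.4% and 18.6% of all tested genes), and the median log2 difference was 0.19. Abundant genes among them were Tpi1, triosephosphate isomerase (228 and 327 FPKM in the controls, 253 and 433 FPKM in the deficient libraries, log2 difference 0.28) and Gpi1, glucose phosphate isomerase. Gpi1 was at 124.5 and 120.0 FPKM in the controls and at 119.2 and 115.2 FPKM in the deficient libraries, a range of 0.11 on the log2 scale over the libraries. Pklr (1.44) and Hkdc1 (1.39) were above a log2 difference of 1.

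Genes on either side of glycolysis were described in the same way. Of 23 tested genes of glucose and lactate transport and pyruvate entry, 8 were higher and 1 lower without overlap (18.4% and 18.6% of all tested genes), with a median of 0.29. The most abundant were Bsg, the chaperone of lactate transporters (log2 difference 0.53), Mpc1, a subunit of the mitochondrial pyruvate carrier (0.18), and Pdhb, a subunit of pyruvate dehydrogenase (0.16). The largest differences were those of Pdk4, an inhibitory kinase of pyruvate dehydrogenase (1.43), Slc5a1, the sodium-glucose cotransporter of enterocytes (1.37), and Slc2a5, the fructose transporter (1.29). With the epithelial marker level as a covariate these were 0.12, 0.33 and 0.83. Slc2a5 was low throughout, at 0.76 and 1.48 FPKM in the controls and 3.16 and 5.29 FPKM in the deficient libraries.

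Of 21 tested regulators of glycolysis, 3 were higher and 5 lower without overlap (18.4% and 18.6% of all tested genes), and the median was −0.01. Txnip, which restrains glucose uptake, was the most abundant (log2 difference 0.09), followed by Myc, an activator of glycolytic genes (−0.01), and Mlx (0.13). Myc was at 62.2 and 72.7 FPKM in the controls and at 66.6 and 67.1 FPKM in the deficient libraries. The largest differences were those of Mlxipl, which encodes the sugar-responsive factor ChREBP (1.47), Vhl, the ubiquitin ligase subunit that marks HIF for degradation (−0.54), and Pfkfb4, which makes the activator of phosphofructokinase (0.51). Mlxipl was at 4.25 and 18.5 FPKM in the controls and at 14.2 and 50.6 FPKM in the deficient libraries, with overlap. Its log2 difference stood at −0.10 with the epithelial covariate.

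Of 10 tested genes of the pentose phosphate pathway, 2 were higher and 1 lower without overlap (18.4% and 18.6% of all tested genes; median −0.11), with log2 differences of 0.44 for Taldo1, transaldolase, 0.27 for Pgls, 0.23 for Tkt, transketolase, and −0.10 for Pgd. Of 10 tested genes of gluconeogenesis and fructose metabolism, all 10 differences were positive, 3 without overlap (against the same 18.4%), and the median was 0.85. They included Fbp2 (1.28) and Fbp1 (1.23), fructose bisphosphatases, Pck1, phosphoenolpyruvate carboxykinase (1.09), Tkfc (1.06), and Khk, ketohexokinase (0.81). With the epithelial marker level as a covariate the median of this list was 0.02. Of 13 reference genes, which include Gapdh and Pgk1, none was higher and 2 were lower without overlap (against 18.4% and 18.6%), and the median was −0.03. Their most abundant genes were Actb (−0.09), B2m (−0.36) and Ppia (−0.03), and the largest differences were those of B2m, Tfrc (0.30) and Polr2a (−0.27).

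**Figure D5:**
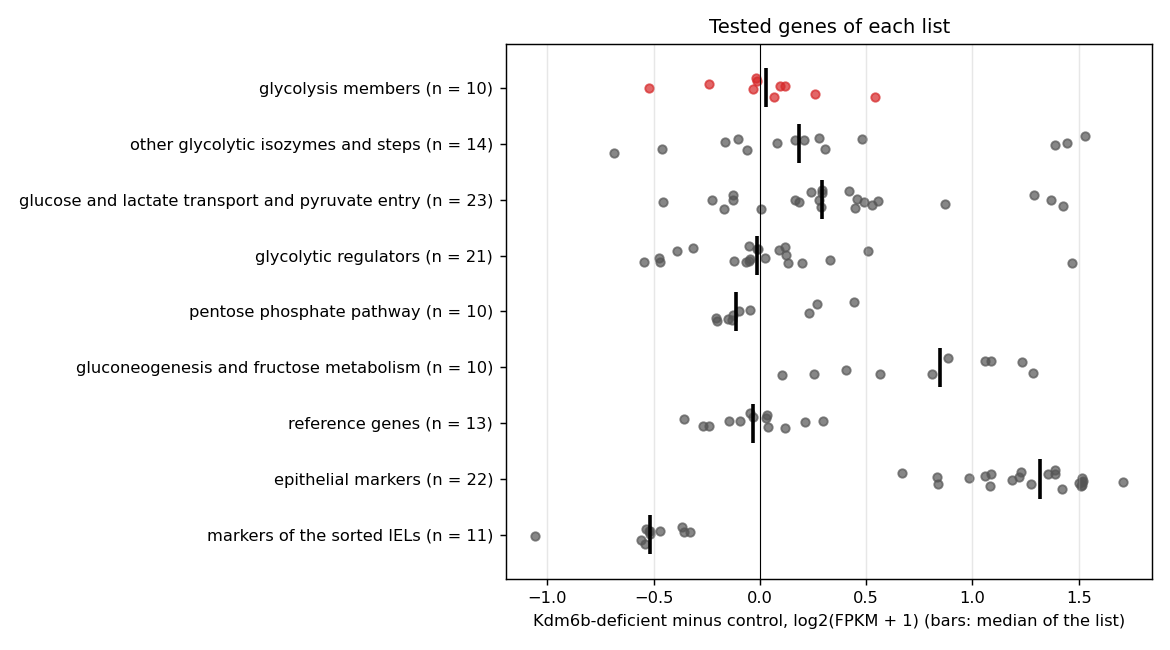
Difference of log2(FPKM + 1), Kdm6b-deficient minus control, with 1 point per tested gene of each list (vertical offsets within a list carry no meaning) and a bar at the median of the list. The glycolysis genes centre on 0.03 and the gluconeogenesis and fructose genes on 0.85, and all 22 epithelial markers lie above 0 while all 11 IEL markers lie below it.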

How the data were processed

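The authors isolated RNA from sorted TCRαβ+CD8αα+ IELs, pooled it from 3 mice per library, mapped reads to mm10 with HISAT and Bowtie2 (2.2.5 in the submitters' processing notes, which also name GRCm38.p5) and quantified genes with RSEM (1.2.8). The deposited values are FPKM per Entrez gene, scaled by the authors to transcript length and mapped fragments. Total reads are not given in the sources used here, so no counting error was computed. FPKM totals were 578491 to 646671. Relative depth, from the step between low values multiplied by length (42 to 152 genes a library), was 1 in control 1, 1.001 in control 3, 1.016 in deficient 1 and 0.851 in deficient 3.

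Symbols and coordinates came from RefSeq on GRCm38.p6 (18467 of 19339 identifiers matched). Values were used as log2(FPKM + 1), a scale that understates changes of low genes, as deposited. A gene was kept when 2 or more libraries reached 1 FPKM. The 12009 genes kept were fitted in limma 3.58.1 under R 4.3.3 (lmFit, then eBayes with a mean-variance trend), with group as the only term, 5.52 total degrees of freedom and Benjamini-Hochberg adjustment. The code of the fit was tested on simulated data, which does not measure its power in these libraries. Tables were made with pandas 2.3.3 and numpy 2.4.6 (Python 3.11.15). The members and the gene lists were chosen with earlier results of these data known. The genes named are the 10 members, up to 3 genes of highest mean FPKM and up to 3 of the largest difference in each other list, the 3 nearest in profile, and Kdm6b. Near copies, an overlapping neighbour, minor isozymes and single cell markers named beside them were chosen outside this rule, after values were seen. A gene that this rule names, and the shares of its step, are not reported here. Pseudocounts, filters, scalings, a replicate block, an epithelial covariate, no trend, and leaving out each library were tried. Lists were described without a set test.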

Additional observations from a re-analysis of the deposited data

How the results depend on the processing

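Of 150 log2 differences of the 10 glycolysis genes recomputed under the alternatives, 136 kept their sign and their side of the threshold, 14 changed sign and none came to pass an adjusted p of 0.05. Of 477 such values of the other named genes, 435 were alike, 29 changed sign and 13 came to pass it, all of the latter under the replicate block. Both totals include the filters, the replicate block and the fit without a trend. These leave the log2 difference of a tested gene unchanged by construction, so a sign kept under them is no test of the result. Causes were not tested.

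Replicate numbers 1 and 3 occur in both groups, but nothing says that they mark a shared batch. The deviations of same-numbered libraries correlated at 0.56 across genes. With the replicate block, 1019 genes had an adjusted p under 0.05 against 0, and 0 of the 10 did (smallest 0.105, Hk1).

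With the epithelial covariate, 93 genes had an adjusted p under 0.05, and 347 lay above a log2 difference of 1 and 103 below −1, against 744 and 53. Those above and below were 1203 and 178 with a pseudocount of 0.1, 1254 and 197 with 0.01, and 1408 and 26 after scaling to Cd3d, Cd3e, Cd3g and Ptprc. Those below −1 were 34 with a filter of 5 FPKM, 103 rescaled to equal totals and 97 under quantile normalization. Leaving out 1 library gave 305 (without control 1) to 1314 (without deficient 1) above and 59 to 263 below. Among the glycolysis genes, 0 had a raw p under 0.05 without a trend, and 0 to 1 with 1 library left out. Higher without overlap were 1 rescaled to equal totals (15.8% of all tested genes), 1 under quantile normalization (13.8%), 3 with T cell scaling (37.2%), and 2 to 6 with 1 library left out (28.9% to 39.2%). Lower without overlap were 0 with T cell scaling (3.09%) and 2 to 4 with 1 library left out (28.6% to 39.4%).

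The median log2 difference of the 10 was −0.051 under quantile normalization, 0.42 with T cell scaling (all tested genes 0.36, against −0.07 under quantile normalization and −0.06 rescaled to equal totals), −0.068 with the epithelial covariate and −0.020 to 0.088 with 1 library left out. Their summed FPKM had a ratio of 1.32 with T cell scaling and of 0.924 to 1.05 with 1 library left out. The share of Pgk1 differed by −0.141 to 0 percentage points with 1 library left out.

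With T cell scaling the medians were 0.56 for other isozymes, 0.65 for transport, 0.33 for regulators, 0.27 for the pentose phosphate pathway and 0.36 for reference genes. Under quantile normalization they were −0.17 for regulators and −0.12 for reference genes. With the epithelial covariate they were −0.080 for regulators, 0.019 for gluconeogenesis and −0.19 for reference genes. With 1 library left out they ran from −0.040 to 0.34 for other isozymes, −0.12 to 0.025 for regulators, −0.16 to 0.15 for the pentose phosphate pathway and −0.13 to 0.052 for reference genes, and, for gluconeogenesis, from 0.29 to 1.23.

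Signs turned with T cell scaling for Pfkp (0.38), Gapdh (0.15), Pkm (0.36), Ldha (0.38), Gpi1 (0.33), Myc (0.38), Pgd (0.29), Actb (0.30), B2m (0.036), Ppia (0.36), Polr2a (0.11) and Kdm6b (0.19). They turned with the epithelial covariate for Pfkp (0.0075), Pgk1 (−0.026), Pgam1 (−0.17), Eno1 (−0.025), Tpi1 (−0.27), Txnip (−0.058), Mlxipl (−0.10), Tkt (−0.0033), Pck1 (−0.19), Actb (0.25), Tfrc (−0.26) and Kdm6b (0.12), and under quantile normalization for Aldoa (−0.029) and Actb (0.11). With 1 library left out the range crossed 0 for Pfkp (−0.039 to 0.011), Eno1 (−0.026 to 0.22), Pkm (−0.12 to 0.060), Ldha (−0.25 to 0.22), Tpi1 (−0.11 to 0.66), Txnip (−0.067 to 0.24), Myc (−0.12 to 0.10), Tkt (−0.0021 to 0.46), Pgd (−0.37 to 0.17), Actb (−0.39 to 0.21), Ppia (−0.19 to 0.13), Tfrc (−0.15 to 0.75) and Kdm6b (−0.52 to 0.16). Without counts, depth limits the low genes, such as Hk2 and Slc2a5, by an amount that could not be given.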
